A study of Mus musculus with 4 samples.

Results

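The semaphorins, plexins and neuropilins are a family of guidance cues and their receptors. Members were the protein-coding rows of the deposited count table whose symbols are those of a semaphorin of classes 3 to 7, a plexin, a neuropilin, Plxdc1 or Plxdc2, which gave 33 of the 56748 genes in the table: 20 semaphorins, 9 plexins, 2 neuropilins and 2 Plxdc genes. RNA was sequenced from HT22, an immortalised mouse hippocampal neuronal line, in 2 libraries of a line overexpressing MEIS2 and 2 libraries of a control line, to find what this homeodomain transcription factor does in these cells. The labels give both lines no treatment, time, vector or clone, so an effect of MEIS2 and another difference between the lines cannot be told apart. Nor do they state separate cultures within a line, and the p-values reflect library-to-library spread that may be technical. In bulk RNA, fewer cells expressing a gene and less RNA per cell cannot be told apart.

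Semaphorins are secreted or membrane-bound ligands that steer growing axons and migrating cells, often by repulsion. Plexins are their signalling receptors and carry an intracellular GAP domain that acts on small GTPases of the Ras family, and neuropilins are co-receptors with short cytoplasmic tails that bind most class 3 semaphorins and also VEGF. In the hippocampus the family takes part in laying out mossy fibre and commissural projections and in pruning axons and spines.

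Total counts were 15705070 and 15014017 in MEIS2 replicates 1 and 2, against 16903967 and 16445575 in control replicates 1 and 2. Meis2 itself held 5182 and 5571 counts in the MEIS2 libraries, against 245 and 319 in the controls. The fitted log2 difference was 4.22 ± 0.34 (SE), and edgeR's quasi-likelihood test gave an adjusted p of 6.41e-05. Of the 15 neuron markers listed, 10 had no more than 3 counts in any library. Among them Rbfox3, Snap25, Stmn2 and Dcx were at 0 in all 4 libraries. Tubb3, the neuron marker with the most counts, held 267 and 199 in MEIS2 libraries, against 340 and 263 in controls. Map2 held 129 and 305 counts in MEIS2 libraries, against 102 and 117 in controls. The summed neuron list, mostly Tubb3 and Map2, measured 28.9 and 33.6 CPM in MEIS2 libraries, against 33.9 and 27.2 CPM in controls. Of 8 fibroblast markers, 3 had no more than 3 counts in any library (Lum and Thy1 at 0). Their sum, mostly collagen, was 546.3 and 718.4 CPM in MEIS2 libraries, against 491.6 and 470.7 CPM in controls. Summed markers of astrocytes did not exceed 0.576 CPM in any library. The endothelial sum ranged from 1.79 to 2.82 CPM in MEIS2 libraries and from 1.43 to 1.91 CPM in controls. Oligodendrocyte-lineage markers summed to 37.5 and 33.8 CPM in MEIS2 libraries, against 36.9 and 29.9 CPM in controls, with Olig1, Olig2 and Sox10 at 0. Nearly all of this sum was Cnp and Pdgfra. Cnp averaged 17.1 CPM in MEIS2 libraries, against 24.7 CPM in controls, and Pdgfra 17.4 against 8.11 CPM. Microglial markers summed to 26.7 and 19.3 CPM in MEIS2 libraries, against 35.1 and 25.6 CPM in controls, nearly all of it Tmem119, with Cx3cr1, P2ry12, Itgam and Ptprc at 0.

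Long genes set 2 libraries apart before any member is considered. Over the 1184 tested genes of at least 10000 bases, the median deviation from the gene's mean log2 CPM was 0.01 in MEIS2 replicate 1 and 0.73 in MEIS2 replicate 2, against -0.53 in control replicate 1 and -0.14 in control replicate 2. Beside the fitted values, the results below give values without 1 library, and values after removal of a smooth trend on length and GC content fitted in every library. The part of this length trend in the members' differences was not tested.

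The members spanned a wide range of levels. CPM is the depth-scaled count of a gene, here after TMM scaling, which corrects for differences in library make-up. Of the 33 members, 24 had enough counts to be tested (about 10 counts in at least 2 libraries), 18 averaged at least 5 CPM over the 4 libraries, and 9 were not tested. All members together made up 0.166% and 0.178% of counts in the MEIS2 libraries, against 0.141% and 0.147% in the controls. Divided by gene length, which is needed to compare genes, the plexin Plxnb2 stood above every other member in both lines, at 98.6 ± 18.3 CPM per kilobase in the MEIS2 line and 107.4 ± 8.49 in the control line (SD, n = 2 each). It was followed by Plxnd1 (19.3 ± 2.26 in MEIS2, 19.4 ± 1.42 in control) and Plxna1 (19.0 ± 0.483 in MEIS2, 16.0 ± 0.671 in control), whose levels per kilobase differed by less than their spread in the MEIS2 line and by more than it in the control line. In the MEIS2 line the next members per kilobase were Nrp2 (13.5 ± 3.40 in MEIS2, 6.62 ± 0.820 in control), Sema3c (10.7 ± 5.41 in MEIS2, 7.93 ± 1.01 in control) and Sema3f (10.3 ± 2.25 in MEIS2, 12.5 ± 2.06 in control). These 3 overlap one another in the MEIS2 line, while in the control line Sema3f lay above both others. Sema4b, at 7.98 ± 1.70 CPM per kilobase in the MEIS2 line and 6.63 ± 0.778 in the control line, was level with Nrp2 in the control line.

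**Figure D1:**
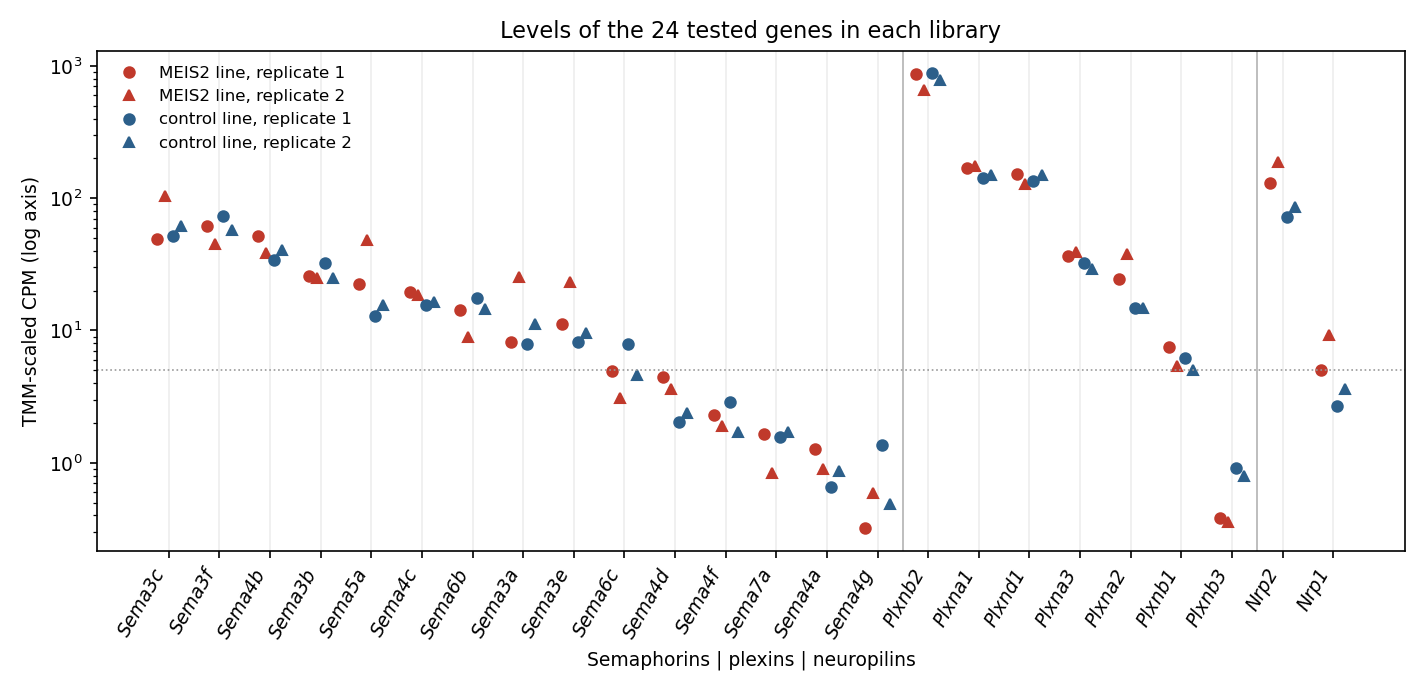
TMM-scaled CPM (log axis) of the 24 tested members in each library, with semaphorins, plexins and neuropilins separated by vertical lines; red marks are MEIS2 libraries, blue marks control libraries, circles replicate 1 and triangles replicate 2, and the dotted line is 5 CPM. Plxnb2 lies between 660.8 and 875.9 CPM in all libraries, and for Nrp2, Nrp1, Sema5a, Plxna2 and Sema3e both red marks lie above both blue marks.

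The count of members past the test was 0. In edgeR's quasi-likelihood test 0 members were higher and 0 lower at an adjusted p under 0.05, where 0.00781% of all 12802 genes tested were called, Meis2 alone. The lowest adjusted p of a member was 0.279, and DESeq2 and limma-voom also called 0 members. DESeq2 called 0.453% of all genes as higher and 0.00781% as lower, and gave no adjusted p for the 6 tested members under 5 CPM. At an unadjusted p under 0.05, 5 of 24 members (20.8%) were higher and 0 were lower, against 9.79% and 0.414% of all genes tested. Both MEIS2 libraries lay above both controls for 10 members (41.7%) and below both for 2 (8.33%), against 22.6% and 19.1% of all genes tested. The fitted value was above 0 for 14 members (58.3%), against 50.9% of all genes, and the median log2 fold change was 0.25, against 0.012 over all genes. Without MEIS2 replicate 1, a fit that assumes the lone MEIS2 library to vary like the controls, 6 members were called: Nrp2, Sema5a, Plxna2, Sema3e, Sema3a and Nrp1, all higher. That is 25% of the tested members, where 2411 of 13395 genes (18.0%) were called in all and 14.2% were called higher.

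Over all genes, those shares differed with gene length. The tested members have a median length of 7490 bases, against 4219 bases over all genes tested. In the table as a whole, the share of genes higher at an unadjusted p under 0.05 was 3.60% between 2500 and 5000 bases, 20.2% between 7500 and 10000 bases, 35.2% between 10000 and 15000 bases and 56.6% over 15000 bases. The 5 members higher at an unadjusted p under 0.05 in edgeR's test are 9285 to 18686 bases long. Across the 24 tested members, which share the same 4 libraries, the log2 fold change had a Spearman rho of 0.649 with gene length and -0.793 with GC content. Over all genes tested these were 0.488 and -0.421. Within lines the same members also differed by length: replicate 2 minus replicate 1 had a rho of 0.692 in the MEIS2 line and 0.403 in the control line. Across all genes tested the rho was 0.431 in the MEIS2 line and 0.319 in the control line. After the length and GC correction, the members' median log2 fold change was 0.017, against -0.053 over all genes, and 12 members were fitted higher and 12 lower. With the length trend alone removed it was -0.11, against -0.051.

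**Figure D2:**
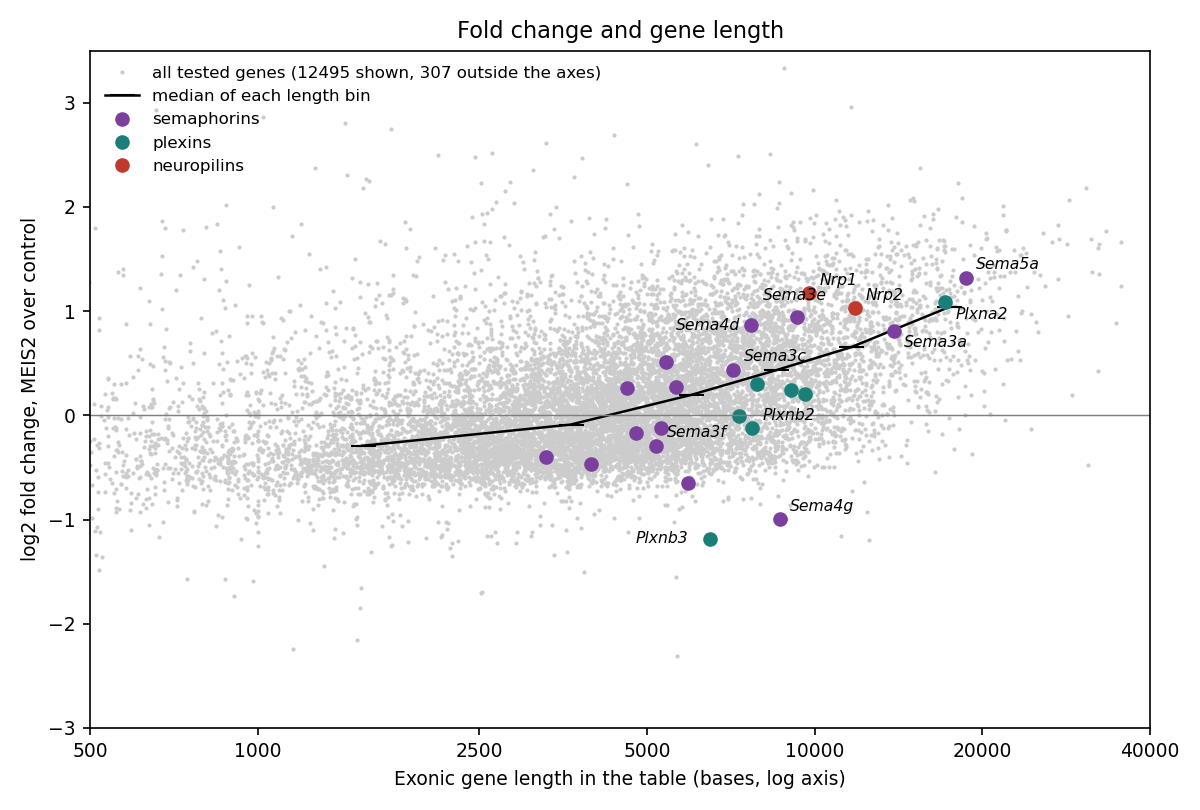
Log2 fold change, MEIS2 over control, against exonic gene length (log axis) for 12495 of the 12802 tested genes (grey, 307 lie outside the axes) and the 24 tested members (coloured by family); the black line joins the medians of 6 length bins. Nrp1, Sema3e, Nrp2, Sema5a and Plxna2 lie above 0 at the long end, where the median of all genes is also above 0, and Plxnb3 and Sema4g lie lowest.

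Promoter sequence is shown for the 4 members with the lowest p-values, since the line overexpresses a factor that binds DNA. RefSeq start sites on GRCm38.p6 were matched by symbol for 26 of the 33 members, with 37 start sites in all, and the 250 bases before each start were searched on both strands for TGACAG, the core motif of MEIS proteins. The core motif was found in 7 of 37 windows (18.9%), of the genes Plxna2, Sema3g, Sema4d, Sema6c and Sema7a, against 15.8% of 32536 distinct promoter windows. Capitals in the sequences mark the core motif, which among these 4 is present once, 195 bases before the Plxna2 start on the plus strand. The windows, all on the plus strand, are chr1:62703067-62703316 for Nrp2, chr15:32244563-32244812 for Sema5a, chr1:194619579-194619828 for Plxna2 and chr8:128358823-128359072 for Nrp1. Their GC contents are 72.4%, 72.0%, 62.8% and 64.4% in that order, against a median of 52.4% over all windows. Over the 37 member windows the median was 64%.
Nrp2: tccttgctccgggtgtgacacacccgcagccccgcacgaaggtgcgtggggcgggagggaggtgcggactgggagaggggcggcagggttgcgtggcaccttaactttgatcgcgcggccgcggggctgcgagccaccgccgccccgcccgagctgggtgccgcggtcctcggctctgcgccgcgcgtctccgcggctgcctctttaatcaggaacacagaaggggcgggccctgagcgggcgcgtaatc
Sema5a: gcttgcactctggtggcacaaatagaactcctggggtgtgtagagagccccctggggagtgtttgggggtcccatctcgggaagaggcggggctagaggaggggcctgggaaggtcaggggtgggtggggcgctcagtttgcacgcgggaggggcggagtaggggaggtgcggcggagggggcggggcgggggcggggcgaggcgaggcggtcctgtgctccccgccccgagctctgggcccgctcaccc
Plxna2: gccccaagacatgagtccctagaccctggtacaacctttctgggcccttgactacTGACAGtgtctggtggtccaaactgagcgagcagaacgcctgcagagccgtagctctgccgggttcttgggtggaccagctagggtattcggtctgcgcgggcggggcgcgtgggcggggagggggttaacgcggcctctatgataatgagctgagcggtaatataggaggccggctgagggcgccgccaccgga
Nrp1: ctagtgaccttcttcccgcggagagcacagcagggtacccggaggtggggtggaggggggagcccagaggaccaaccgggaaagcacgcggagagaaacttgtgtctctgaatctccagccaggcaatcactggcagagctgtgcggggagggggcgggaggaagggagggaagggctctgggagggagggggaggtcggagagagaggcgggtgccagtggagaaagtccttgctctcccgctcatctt

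Both neuropilins were fitted higher in the MEIS2 line by a similar factor. Nrp2, the co-receptor that binds SEMA3F with high affinity and also VEGF-C (ENSMUSG00000025969, chromosome 1, 62742444 to 62857854, plus strand, in the table's own positions, for which no build is stated), measured 131.3 and 188.2 CPM in the MEIS2 libraries, against 71.5 and 85.2 CPM in the controls. The lines did not overlap. The log2 fold change was 1.03 (SE 0.32), at an unadjusted p of 0.0055 and an edgeR adjusted p of 0.279. It was 0.71 without MEIS2 replicate 2. After the length and GC correction it was 0.46 (edgeR unadjusted p = 0.0319, adjusted p = 0.379). In that fit Nrp2 was 1 of 24 tested members with an unadjusted p under 0.05, and 0 genes were called. The share of all genes at that unadjusted threshold was not counted there. Genes of its length bin, 10000 to 15000 bases, had a median log2 fold change of 0.65 in the main fit.

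Nrp1, the co-receptor through which SEMA3A and VEGF-A act (ENSMUSG00000025810, chromosome 8, 129085085 to 129229844, plus strand), was much scarcer, with 78 and 155 counts in the MEIS2 libraries, against 41 and 59 in the controls. Its levels were 4.99 and 9.23 CPM in the MEIS2 libraries, against 2.67 and 3.63 CPM in the controls, again without overlap. The log2 fold change was 1.17 (SE 0.47, edgeR adjusted p = 0.383). Leaving out MEIS2 replicate 2 gave 0.63, and the length and GC correction gave 0.58. Genes of its length bin, 7500 to 10000 bases, had a median log2 fold change of 0.43. Per length, Nrp2 exceeded Nrp1 by 21.7 and 16.9 times in the MEIS2 libraries, against 22.1 and 19.4 times in the controls. The ranges of that ratio overlap between the lines.

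Among the plexins, the B class gave the most abundant receptor and the A class the highest fitted log2 fold change. Plxnb2, a receptor for SEMA4C and SEMA4D that is widely expressed in neural progenitors (ENSMUSG00000036606, chromosome 15, 89039752 to 89064991, minus strand), held 13452 and 11101 counts in the MEIS2 libraries, against 13452 and 12736 in the controls. Its levels were 861.1 and 660.8 CPM in the MEIS2 libraries, against 875.9 and 783.2 CPM in the controls, so the lines overlap. The log2 fold change was -0.12 (SE 0.32, adjusted p = 0.882), but 0.011 without MEIS2 replicate 2 and 0.024 when counts were scaled by totals only, a scaling under which the median over all genes is 0.17. Plxnb2 made up 70.6% and 65.6% of plexin counts per base of length in the MEIS2 libraries, against 74.1% and 70.7% in the controls.

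Plxnb1, the receptor for SEMA4D best known for activating RhoA, stood far lower, at 7.55 and 5.42 CPM in MEIS2 libraries, against 6.19 and 5.04 CPM in controls. Its log2 fold change of 0.21 (SE 0.43) turned to -0.067 without MEIS2 replicate 1 and to -0.21 with the length trend alone removed. Plxnb3, a receptor for SEMA5A, held 6 and 6 counts in the MEIS2 libraries, against 14 and 13 in the controls. It reached the count filter through the control libraries alone, and its lines could then only differ in this direction (0.384 and 0.357 CPM in MEIS2, against 0.912 and 0.799 CPM in controls).

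Plxna2, a receptor for class 6 semaphorins and a neuropilin partner in class 3 signalling that is known for its part in mossy fibre targeting in the hippocampus (ENSMUSG00000026640, chromosome 1, 194300526 to 194499177, plus strand), measured 24.5 and 38.1 CPM in the MEIS2 libraries, against 14.7 and 14.8 CPM in the controls. Each MEIS2 library exceeded each control. The log2 fold change was 1.09 (SE 0.38, edgeR adjusted p = 0.297). Leaving out MEIS2 replicate 2 gave 0.69, and the length and GC correction gave 0.21. At 17174 bases it is the longest plexin listed here, and genes over 15000 bases had a median log2 fold change of 1.04. Plxna2 over Plxna1, per length, was 0.0762 and 0.115 in MEIS2 libraries, against 0.0551 and 0.0521 in controls.

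The other A plexins, which pair with neuropilins for SEMA3A and SEMA3F, differed less. Plxna1 measured 169.2 and 175.4 CPM in the MEIS2 libraries, against 140.9 and 149.5 CPM in the controls. Plxna3 measured 36.5 and 39.1 CPM in the MEIS2 libraries, against 32.2 and 29.2 CPM in the controls. In both cases the MEIS2 libraries lay above the controls, at log2 fold changes of 0.25 (SE 0.29) for Plxna1 and 0.30 (SE 0.34) for Plxna3, and both were below 0, at -0.17 and -0.057, with the length trend alone removed. Plxna4, the A plexin of sensory and hippocampal neurons, had 0 counts in both MEIS2 libraries, against 5 and 0 in the controls. Plxnd1, which binds SEMA3E without a neuropilin and guides vessels as well as axons, measured 152.3 and 129.1 CPM in the MEIS2 libraries, against 134.1 and 148.8 CPM in the controls, and the fitted log2 fold change was -0.0068 (SE 0.30). Its sign turned in 4 of the alternative fits. Plxnc1, the receptor for SEMA7A, had 1 count in all, in MEIS2 replicate 2.

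**Figure D3:**
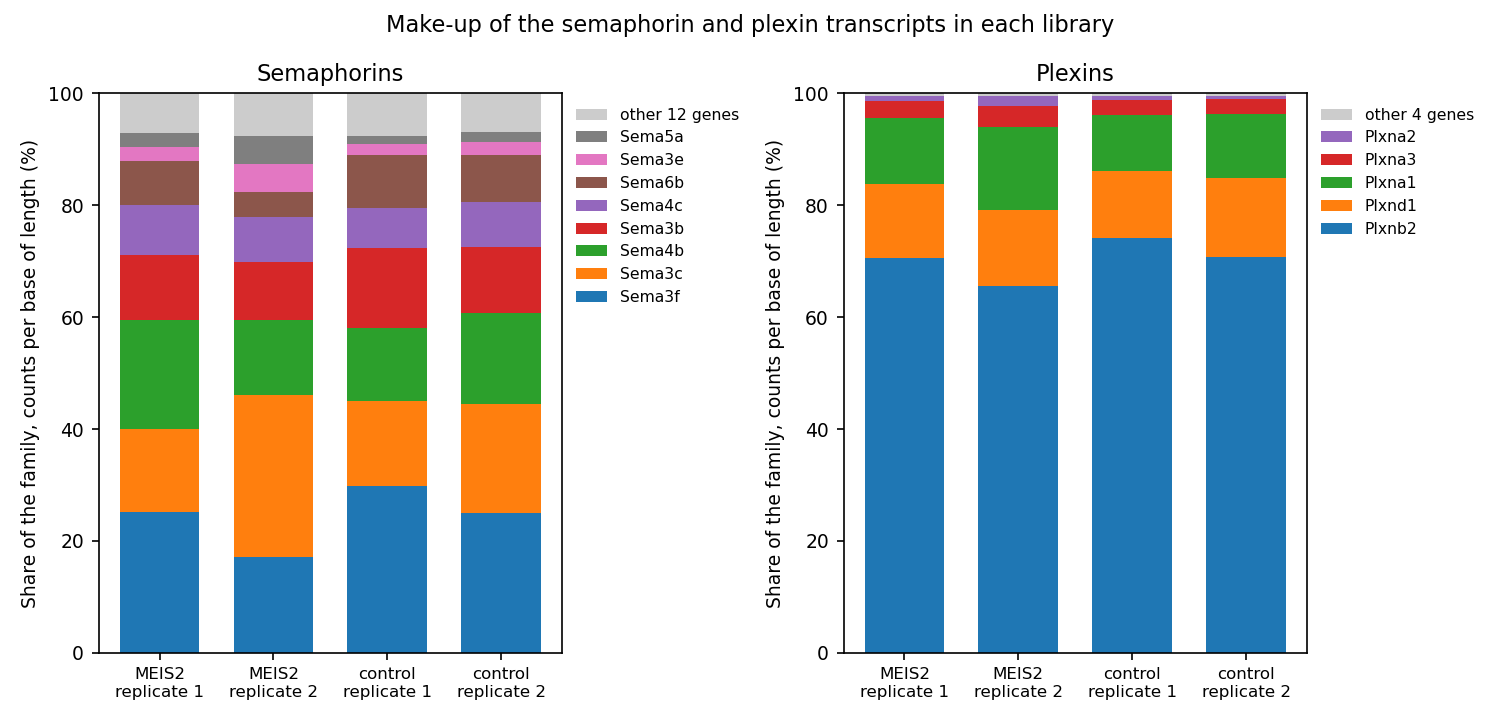
Share of each gene in the summed counts per base of length of its family, in percent, for the 20 semaphorins (left) and the 9 plexins (right) in each library. Plxnb2 makes up between 65.6% and 74.1% of the plexin bars, while in the semaphorin bars Sema3c holds 28.9% in MEIS2 replicate 2 and between 14.7% and 19.5% in the other libraries.

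Among the class 3 semaphorins, the secreted class, 3 of the 5 tested were fitted higher and 2 lower, and Sema3c, Sema3a, Sema3e and Sema3f differed more between the MEIS2 libraries than between the lines. Sema3c, which attracts or repels depending on the neuron and acts in heart outflow development, measured 49.4 and 104.0 CPM in the MEIS2 libraries, against 51.5 and 61.7 CPM in the controls. Only MEIS2 replicate 2 was high, and the log2 fold change of 0.44 (SE 0.37) was -0.24 without that library and -0.031 after the length and GC correction. Sema3f, a repellent for Nrp2-bearing axons, measured 61.5 and 45.0 CPM in the MEIS2 libraries, against 72.7 and 57.6 CPM in the controls (log2 fold change -0.29, SE 0.33). Without 1 library it lay between -0.55, without MEIS2 replicate 1, and -0.12, without control replicate 1. The lines overlap for both genes. Sema3c over Sema3f, per length, was 0.584 and 1.68 in the MEIS2 libraries, against 0.515 and 0.780 in the controls, so which of these ligands was more abundant turned in 1 library alone.

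Sema3a, the archetypal axon repellent, which acts through Nrp1 and A plexins, measured 8.13 and 25.2 CPM in the MEIS2 libraries, against 7.88 and 11.1 CPM in the controls. MEIS2 replicate 1 lay between the controls. The log2 fold change of 0.81 (SE 0.49, adjusted p = 0.591) was -0.26 without MEIS2 replicate 2, 1.40 without MEIS2 replicate 1 and -0.14 after the length and GC correction. Sema3e, the Plxnd1 ligand (ENSMUSG00000063531, chromosome 5, 14075290 to 14306703, plus strand), measured 11.2 and 23.1 CPM in the MEIS2 libraries, against 8.14 and 9.65 CPM in the controls, with no overlap. Its log2 fold change was 0.95 (SE 0.43, unadjusted p = 0.0449, edgeR adjusted p = 0.473). Leaving out MEIS2 replicate 2 gave 0.29, and the length and GC correction gave 0.34.

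Sema3b, known as a tumour suppressor and a ligand of neuropilins, measured 26.0 and 24.8 CPM in the MEIS2 libraries, against 32.3 and 24.8 CPM in the controls (log2 fold change -0.17, SE 0.35). Without control replicate 1 the value was 0.024. Sema3g was not tested, with 5 and 8 counts in the MEIS2 libraries, against 8 and 5 in the controls, and Sema3d had 1 and 2 counts in the MEIS2 libraries, against 0 and 0 in the controls. A count of 3, taken as the limit that a count of 0 allows, is worth 0.192 and 0.179 CPM in the MEIS2 libraries, against 0.195 and 0.184 CPM in the controls, for counting error only. Sema3d therefore lies under that limit in every library.

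Sema5a was the member with the largest positive log2 fold change. It encodes a transmembrane semaphorin with thrombospondin repeats that acts through A plexins in hippocampal granule cells (ENSMUSG00000022231, chromosome 15, 32244956 to 32696487, plus strand). It held 350 and 816 counts in the MEIS2 libraries, against 196 and 254 in the controls, or 22.4 and 48.6 CPM in MEIS2 libraries, against 12.8 and 15.6 CPM in controls. MEIS2 replicate 2 stood highest, and replicate 1 still lay above both controls. The log2 fold change was 1.32 (SE 0.42), at an unadjusted p of 0.00641. The adjusted p was 0.279 by edgeR and 0.125 by DESeq2. Without MEIS2 replicate 2 it was 0.62, and the length and GC correction gave 0.30. At 18686 bases Sema5a is the longest member, and genes over 15000 bases had a median log2 fold change of 1.04. Its class mate Sema5b had 0 counts in all 4 libraries.

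**Figure D4:**
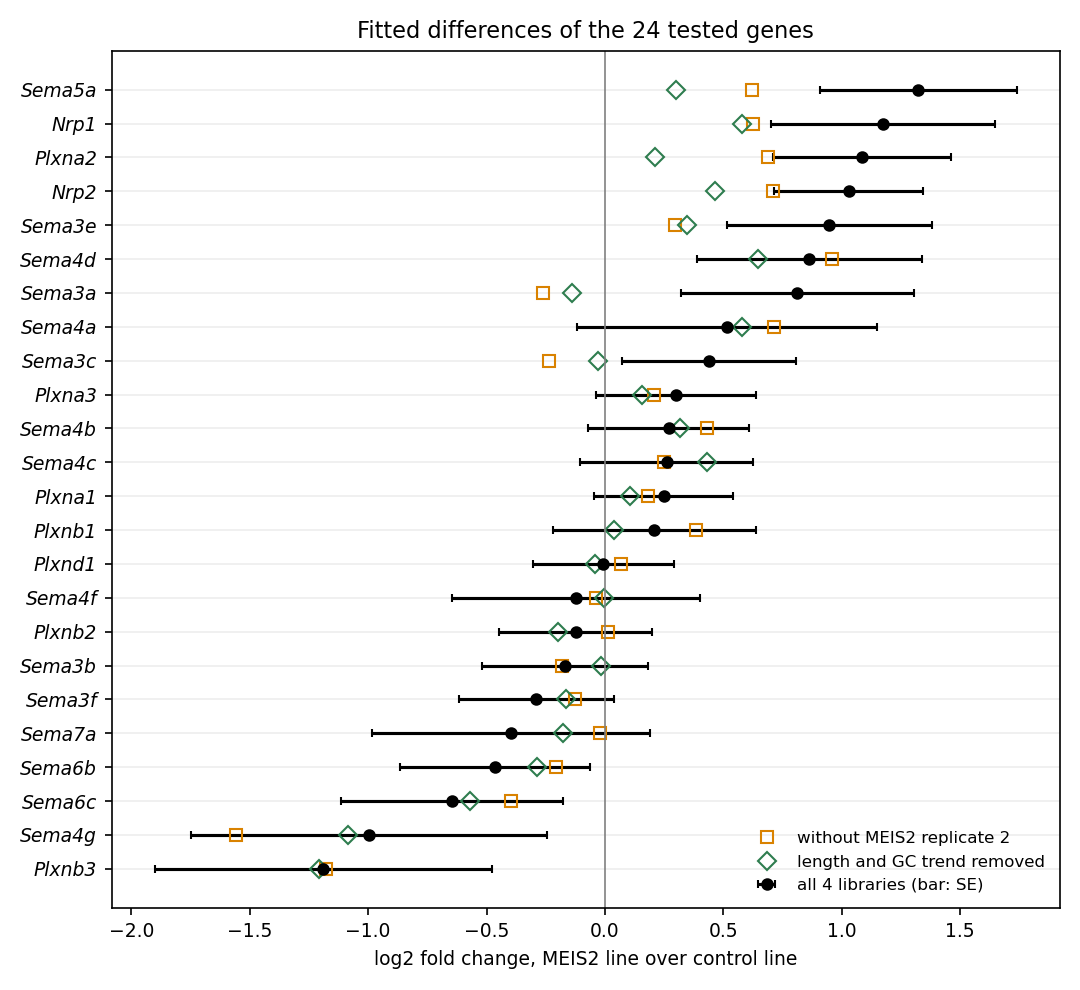
Log2 fold change, MEIS2 line over control line, of the 24 tested members from all 4 libraries (black, bars are SE), without MEIS2 replicate 2 (orange squares) and after the length and GC correction (green diamonds). Sema5a, Nrp1, Plxna2, Nrp2 and Sema3e stand highest in black, between 0.95 and 1.32, and each is closer to 0 in both alternatives, while Sema4d stays between 0.65 and 0.96 in all 3.

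The class 4 semaphorins, transmembrane ligands of B and D plexins with roles in axon growth, synapse formation and immune cells, were fitted higher for 4 genes and lower for 2, between -0.996 for Sema4g and 0.86 for Sema4d on the log2 scale. Sema4b measured 51.9 and 38.3 CPM in the MEIS2 libraries, against 34.3 and 40.5 CPM in the controls (log2 fold change 0.27, SE 0.34), and the lines overlap. That value was 0.022 without MEIS2 replicate 1 and 0.43 without MEIS2 replicate 2. Sema4c, the PLXNB2 ligand, measured 19.5 and 18.7 CPM in the MEIS2 libraries, against 15.6 and 16.4 CPM in the controls, with no overlap but a log2 fold change of 0.26 (SE 0.36), or 0.43 after the length and GC correction. Sema4d, the ligand of PLXNB1 and PLXNB2, averaged less than 5 CPM, with 4.42 and 3.63 CPM in the MEIS2 libraries, against 2.02 and 2.40 CPM in the controls. It did not overlap between the lines, at an unadjusted p of 0.0911 in edgeR's test. Sema4d (7679 bases) was higher in MEIS2 replicate 1 than in replicate 2, in contrast to the 5 members above. Its log2 fold change was 0.86 (SE 0.48), or 0.96 without MEIS2 replicate 2.

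The remaining class 4 genes were scarce. Sema4f measured 2.30 and 1.91 CPM in the MEIS2 libraries, against 2.87 and 1.72 CPM in the controls. Sema4a, which binds plexins and immune receptors, measured 1.28 and 0.893 CPM in the MEIS2 libraries, against 0.651 and 0.861 CPM in the controls. The lines were apart only by a small margin, with 20 and 15 counts in the MEIS2 libraries, against 10 and 14 in the controls. Sema4g had 5 and 10 counts in the MEIS2 libraries, against 21 and 8 in the controls, and its fitted log2 value of -0.996 was -0.11 without control replicate 1.

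The 3 tested members of classes 6 and 7 were fitted lower, as were 7 other tested members. Sema6b, a transmembrane ligand of A plexins, measured 14.4 and 8.99 CPM in the MEIS2 libraries, against 17.7 and 14.6 CPM in the controls. Both MEIS2 libraries lay below both controls by a small margin, and the log2 fold change was -0.46 (SE 0.40, adjusted p = 0.650). Sema6c measured 4.93 and 3.10 CPM in the MEIS2 libraries, against 7.94 and 4.61 CPM in the controls (log2 fold change -0.64, SE 0.47, adjusted p = 0.611), with overlap. Without 1 library, Sema6c ranged from -1.04 (without MEIS2 replicate 1) to -0.21 (without control replicate 1), and Sema6b from -0.86 (without MEIS2 replicate 1) to -0.21 (without MEIS2 replicate 2). They are 5935 and 3968 bases long, shorter than the median member, and their GC contents of 61.5% and 63.5% were the highest among the tested members. Sema6a had 1 count in all and Sema6d 0, so class 6 was represented by Sema6b and Sema6c. Sema7a, a GPI-anchored semaphorin that promotes axon growth through beta1 integrins, measured 1.66 and 0.833 CPM in the MEIS2 libraries, against 1.56 and 1.72 CPM in the controls.

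Plxdc1 and Plxdc2 encode membrane proteins with a plexin-like extracellular domain that are not semaphorin receptors and are best known from tumour endothelium. Plxdc1 had 0 and 3 counts in the MEIS2 libraries, against 5 and 0 in the controls, and Plxdc2 had 0 counts in all 4. Both lie near or under the limit of detection, so a difference was not detectable at this depth.

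Other genes of the pathway were also called in 0 cases. Of 21 co-receptors and receptor partners listed, 11 were tested, and 0 passed at an adjusted p under 0.05 in edgeR's test, against 0.00781% of all genes. At an unadjusted p under 0.05, 2 (18.2%) were higher and 0 lower, against 9.79% and 0.414% of all genes tested. They were Itgav, an integrin chain (log2 fold change 1.51, SE 0.39, adjusted p = 0.256), and Flt1, a VEGF receptor (1.53, SE 0.54, adjusted p = 0.308). After the length and GC correction they stood at 0.83 and 0.84, and without MEIS2 replicate 2 at 0.81 and 0.84. Itgav held 695 and 1610 counts in MEIS2 libraries, against 352 and 430 in controls. The neural adhesion molecules Chl1 and Cntn2 had 0 counts, and L1cam had 0 and 0 counts in the MEIS2 libraries, against 0 and 2 in the controls. Kdr, the main VEGF receptor, had 1 count in all.

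Of 35 cytoplasmic effectors, 31 were tested and 0 passed. At an unadjusted p under 0.05, 9 (29.0%) were higher and 0 lower, against 9.79% and 0.414% of all genes tested. The 3 with the lowest p were Tiam1, an exchange factor for Rac (1.53, SE 0.41, adjusted p = 0.268), Arhgef12, a RhoA exchange factor that binds B plexins (1.19, SE 0.35, adjusted p = 0.277), and Ranbp9, which binds A plexins (1.16, SE 0.36, adjusted p = 0.279). With the trend removed they stood at 1.10, 0.45 and 1.02, and without MEIS2 replicate 2 at 0.91, 0.69 and 0.84. The CRMP genes Crmp1, Dpysl4 and Dpysl5, which encode neuronal mediators of SEMA3A, were at 0 in all libraries. The other CRMP genes, Dpysl2 and Dpysl3, were expressed and did not overlap between the lines. Dpysl2 measured 18.4 and 20.5 CPM in the MEIS2 libraries, against 9.90 and 8.79 CPM in the controls. Dpysl3 measured 199.8 and 298.2 CPM in the MEIS2 libraries, against 138.2 and 174.9 CPM in the controls. The median log2 fold change was 0.54 for the tested co-receptors and 0.24 for the effectors, or 0.30 and 0.05 with the trend removed.

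Reads shared with other genes were checked by sequence. In GENCODE M21 transcripts, no member matched another at 90% identity over 150 bases. Copies covered over at least 50% of their length were found for Sema3a (1 gene, with 3 counts in all) and Sema3e (2 genes, at 0). Shorter stretches of at least 150 bases were shared by Sema4b with 304 genes and by Sema3e with 58, so part of their reads may be uncertain. Exons of Plxna1 share 970 bases (10.7%) with Gm26811 and those of Sema4c share 334 bases (7.27%) with D430040D24Rik, both on the opposite strand. Whether counting used strand is not stated, and without it such reads cannot be told apart. Gm26811 had 10 and 6 counts in the MEIS2 libraries, against 4 and 3 in the controls, and D430040D24Rik had 15 and 6 counts in the MEIS2 libraries, against 11 and 17 in the controls.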

How the data were processed

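The authors deposited whole-number read counts per gene in 1 table with 1 column per library, together with a symbol, position and gene length for each gene, per the file headers. Per the labels' protocols, poly(A) RNA was selected on oligo(dT) beads, fragmented and made into libraries with a New England Biolabs protocol, and, per the submitters' processing notes, DESeq2 is listed with no role or version. The aligner, counter, strand setting and build are not stated. All 33 members have an exonic length equal to that of GENCODE M21 and 0 have the same start. The table's positions are therefore not those of GENCODE M21 and are given without a build.

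Counts were tested on the whole table in R 4.3.3 with edgeR 4.0.16 (filterByExpr, TMM, quasi-likelihood F test on the group), with Benjamini-Hochberg adjustment over 12802 genes and a threshold of 0.05. The SE is the log2 fold change divided by the square root of F. Log2 CPM used a prior count of 2. The script was tested on simulated data. Alternatives used DESeq2 1.42.0, limma 3.58.1 and offsets from mgcv 1.9.3 that remove each library's smooth trend on gene length, or on length and GC content (GC known for 98.9% of genes). Copies were sought with BLAST+ 2.17.0. Libraries of 1 line differed by more than counting error (chi-square over its degrees of freedom, 87.3 in the MEIS2 line and 33.6 in the control line) and none was treated as a second deposit of another. Members with at least 5 CPM or an unadjusted p under 0.05 are given with a fold change, and of each partner list up to 3 genes with the lowest unadjusted p under 0.05 in each direction. The members and lists were chosen with earlier results of these data known.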

Additional observations from a re-analysis of the deposited data

How the results depend on the processing

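The test had 2 libraries a line, 2 residual degrees of freedom and a biological coefficient of variation of 27.9%. The number of genes called, 1 in the main test, was 271 with no filter on low counts, 59 with DESeq2, 2795 with the replicate number as a block and 0 after the length and GC correction, and ranged from 1 to 2411 when 1 library was left out. The number of members called, 0 in the main test, was 5 with the replicate block (Nrp2, Sema5a, Plxna2, Sema3e and Nrp1, all higher), or 20.8% of members tested against 21.8% of all genes (14.7% higher), and ranged from 0 to 6 without 1 library. The number of listed partners called was 2 with no filter (Itgav and Tiam1) and 17 with the block, and ranged from 0 to 15 without 1 library. The partner lists hold 56 genes, of which 11 co-receptors and 31 effectors were tested in the main and block fits. Over all genes, 1.26% were called with no filter and 21.8% with the block (14.7% higher). With no filter, Itgav and Tiam1 were both higher, at log2 fold changes of 1.47 and 1.49. The 15 came from the fit without MEIS2 replicate 1, which also gave the 2411 genes called. The directions of the 17 and 15 calls were not counted. The labels do not say that a replicate number marks a shared batch. Deviations from the line means of the MEIS2 and control libraries numbered 1 correlated at 0.529 across genes, and the block fit leaves 1 residual degree of freedom. The members' median log2 fold change, 0.25, was -0.11 with the length trend removed, and 0.12 to 0.25 without 1 library. Signs of single members turned as follows. With library size alone, Plxnb2 stood at 0.024, Plxnd1 at 0.14 and Sema4f at 0.039. With a filter at 5 CPM in 2 libraries, Plxnd1 stood at 0.018. With the length trend removed, Plxna1 stood at -0.17, Plxna3 at -0.057, Sema3a at -0.024 and Plxnb1 at -0.21. After the length and GC correction, Sema3c stood at -0.031 and Sema3a at -0.14. Without 1 library, Sema3b ranged from -0.36 to 0.024, Sema4f from -0.45 to 0.28, Plxnd1 from -0.14 to 0.068, Plxnb1 from -0.067 to 0.38, Plxnb2 from -0.34 to 0.011, Sema3c from -0.24 to 0.87 and Sema3a from -0.26 to 1.40. The cause of these changes was not tested, except that a fit without 1 library takes its spread from the other line alone.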
